A study of Mus musculus with 7 samples.

Results

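The genes of the nuclear pore complex, the importins and exportins, the Ran cycle and the nuclear lamina were examined in RNA and in binding sites of EKLF, an erythroid transcription factor encoded by Klf1, in mouse fetal liver. Members were the genes of the expression table whose symbol begins with Nup, Kpn, Ipo, Xpo, Tnpo or Lmn, or is Ran, a Ranbp or a Rangap gene, together with Cse1l, Tpr, Rcc1, Lbr, Ndc1, Rae1 and Nxf1. By this rule there were 50 members among 5194 genes, and all 50 passed the minimum of 1 in at least 1 stage. The members listed 398 coding exons in all, with a median of 7 exons a gene against 3 over all genes, and 7 members listed 1 exon.

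Progenitors and erythroblasts of E13.5 embryos were compared, both from mice in which Klf1 carries a hemagglutinin tag, so no untagged animals entered any comparison. Progenitors were sorted as cells without the red cell antigen Ter119, with or without the transferrin receptor CD71, and erythroblasts as cells with both antigens. The deposited values gave 1 column of RNA coverage and 1 list of EKLF peaks, labelled as pooled, for each stage. Each population came from at least 3 cell sorts. No difference between the stages therefore has a replicate check, and no p-value is given. Of the labelled RNA libraries 1 came from progenitors and 2 from erythroblasts, and no source used here says whether the erythroblast column pools both.

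The value of a gene is the sum of the coverage signal over its listed coding exons. An exon is listed only where it reached 0.8 in both columns, so exons silent in either stage are missing and large falls and rises are understated. The signal is not divided by length, so levels are compared between stages for the same gene and not between genes. If 1 step of the signal is 1 sequenced base, the lowest listed value stands for 28.8 reads of 51 bp in progenitors and 33.7 in erythroblasts, and the total depth is unknown. Differences are log2((erythroblasts + 1) / (progenitors + 1)). A gene is said to have risen or fallen where it differed by at least 2-fold on that scale, a rule that 15.3% of all genes met upward and 13.2% downward. Of 14 erythroid marker genes 10 were listed and 8 of those rose, including Ank1 and Sptb of the red cell membrane skeleton and Tfrc, which encodes the sorted antigen CD71. None of the markers of hepatocytes (8 genes), macrophages (8), lymphoid cells (6), granulocytes and mast cells (6) or endothelium and stroma (6) was listed, and of 6 megakaryocyte markers Gp1ba was (9.35 and 31.6). In sorted bulk cells, fewer cells of a type and less RNA per cell cannot be told apart.

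As background, the nuclear pore is a ring-shaped channel through the nuclear envelope. Its scaffold consists of an outer Y-shaped complex and an inner ring, its centre is filled by nucleoporins rich in phenylalanine and glycine repeats, and filaments extend from its cytoplasmic face and from a basket on the nuclear side. Importins carry proteins into the nucleus and exportins carry proteins and RNA out. The small GTPase Ran, loaded with GTP in the nucleus by Rcc1 and made to hydrolyse it in the cytoplasm by Rangap1, sets the direction of transport. The lamina is a meshwork of lamin filaments under the inner nuclear membrane. Late in their maturation, mammalian erythroblasts condense their chromatin and expel the nucleus, and Xpo7 is an exportin known for its high expression in maturing red cells.

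Regulatory sequence is shown for 5 members on which the results turn. Lmna rose and had erythroblast peaks alone. Kpnb1 fell and had the highest-ranked peak of any member in both lists. Rae1 fell and Nup50 came near the rule upward, each with a strong peak 5' of its listed exons that was in the erythroblast list only. Ran is the GTPase of the pathway and had a peak in both lists. The lines give the 250 bases 5' of the annotated start on the gene's strand, from RefSeq in build GRCm38.p6: chr3:88503353-88503602 on the minus strand (the more 5' of the listed starts of Lmna), chr11:97187893-97188142 on the minus strand, and chr2:172999867-173000116, chr15:84923178-84923427 and chr5:129019906-129020155 on the plus strand. Capitals mark matches on either strand to CCNCNCCC, a loose form of the CACCC-type sequence that EKLF is known to bind.
Lmna: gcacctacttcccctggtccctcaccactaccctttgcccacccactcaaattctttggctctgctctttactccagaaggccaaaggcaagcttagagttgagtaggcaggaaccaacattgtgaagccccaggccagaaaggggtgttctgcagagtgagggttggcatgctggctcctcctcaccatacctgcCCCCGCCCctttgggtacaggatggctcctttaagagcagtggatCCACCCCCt
Kpnb1: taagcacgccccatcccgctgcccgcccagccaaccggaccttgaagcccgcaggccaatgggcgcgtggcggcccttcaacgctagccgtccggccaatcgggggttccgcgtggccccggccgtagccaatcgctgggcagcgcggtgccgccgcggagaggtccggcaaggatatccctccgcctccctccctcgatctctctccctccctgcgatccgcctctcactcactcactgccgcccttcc
Rae1: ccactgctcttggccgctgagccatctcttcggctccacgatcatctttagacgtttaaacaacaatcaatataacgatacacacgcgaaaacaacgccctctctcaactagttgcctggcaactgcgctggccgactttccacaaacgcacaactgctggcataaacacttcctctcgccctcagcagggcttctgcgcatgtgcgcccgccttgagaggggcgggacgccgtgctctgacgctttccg
Nup50: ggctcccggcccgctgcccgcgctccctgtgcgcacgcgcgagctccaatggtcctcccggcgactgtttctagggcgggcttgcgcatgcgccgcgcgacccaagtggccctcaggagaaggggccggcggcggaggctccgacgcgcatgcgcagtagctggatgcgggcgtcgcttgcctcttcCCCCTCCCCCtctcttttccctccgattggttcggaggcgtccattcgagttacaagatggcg
Ran: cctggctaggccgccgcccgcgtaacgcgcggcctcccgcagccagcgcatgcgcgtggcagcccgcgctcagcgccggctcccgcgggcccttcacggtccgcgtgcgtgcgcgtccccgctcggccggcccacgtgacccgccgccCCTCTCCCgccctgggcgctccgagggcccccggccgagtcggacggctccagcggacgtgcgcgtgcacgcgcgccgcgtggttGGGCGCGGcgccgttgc

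Lmna, Nup50 and Ran each held 2 matches, of which the pair in Nup50 overlapped, and Kpnb1 and Rae1 held none. Among the 5, the narrower form CCACNCCC was found in Lmna alone, once. The promoter at the other listed start of Lmna, which is not shown, held no match to either form. Of the 50 members 42 had 1 or more promoters in the table. CCNCNCCC was found in 31 of their 50 promoters (62.0%), against 63.8% of 5409 promoters of genes in the expression table and 45.9% of all 32851 promoters. CCACNCCC, which is contained in the looser form, was found in 10 of 50 (20.0%), against 20.4 and 15.9%. Member promoters with the looser form were 15 of 27 for members with an erythroblast peak and 16 of 23 for members without one. A match is a description of these letters and not a binding site. The peaks are in build mm9, so the promoters were not placed within them.

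More members fell than rose. Of the 50 members 11 fell (22.0%, against 13.2% of all genes), 2 rose (4%, against 15.3%) and 37 did neither, where 28.5% of all genes met the rule in either direction. The median log2 difference was -0.51 against 0.03 over all genes, and 35 members (70.0%) lay below 0, against 48.8% of all genes. Of the 398 member exons 258 (64.8%) were lower in erythroblasts, against 46.6% of all exons of genes. The gene sums are made of these same exons, and genes with many exons weigh most. The exon count is therefore no separate support. Since the members share no replicate, these shares describe 1 pair of columns. The 2 rises were Lmna, which encodes lamins A and C, and Ranbp10, a Ran-binding protein of the cytoplasm. The falls comprised 8 nucleoporin genes, the import receptor genes Kpnb1 and Tnpo3, and the lamin gene Lmnb1.

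**Figure D1:**
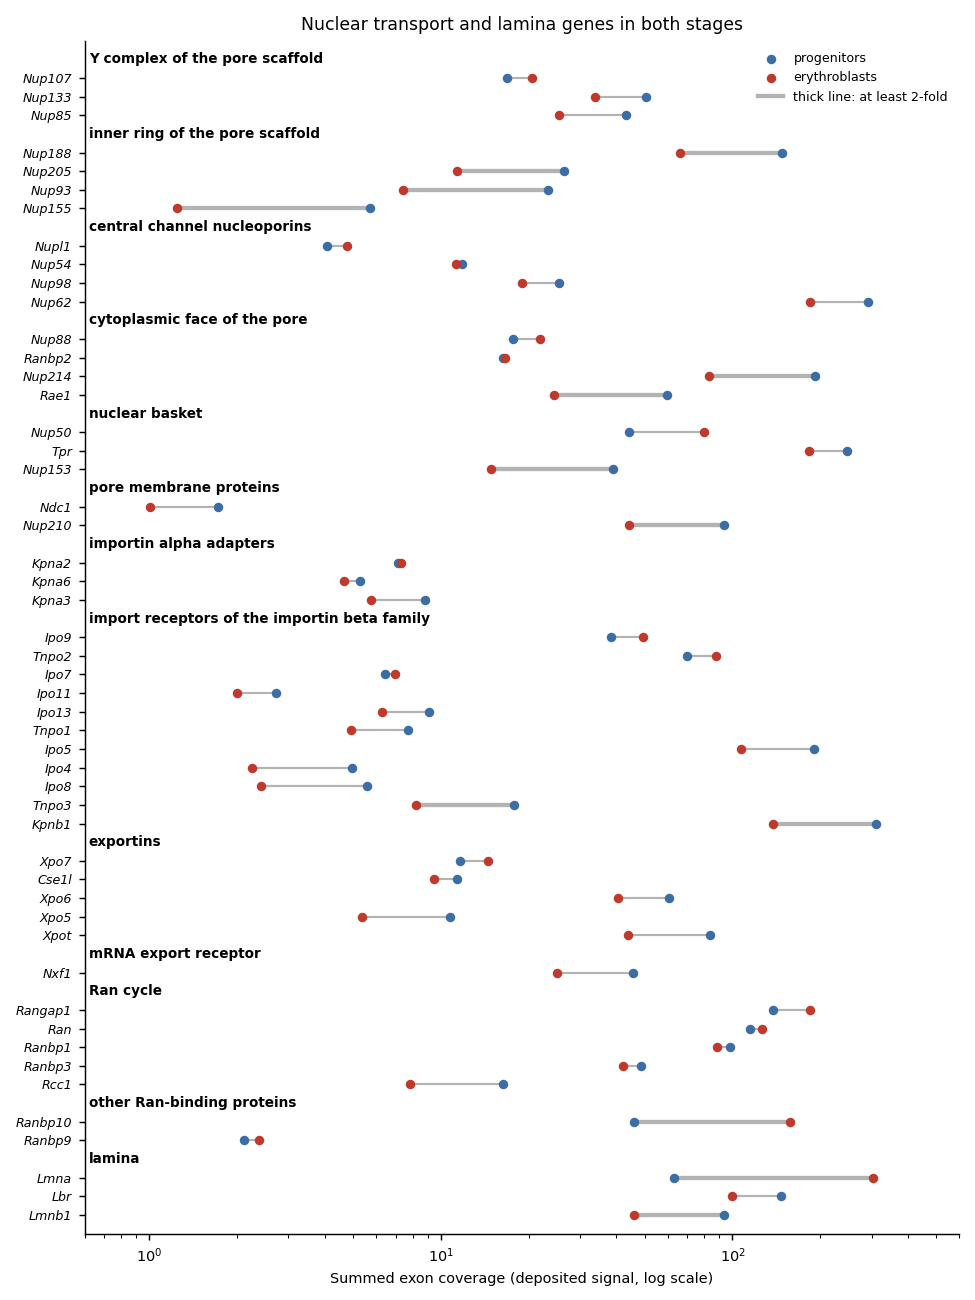
Summed exon coverage of the 50 members in progenitors (blue) and erythroblasts (red), on a log axis in units of the deposited signal, grouped by role, with a thick line where the stages differ by at least 2-fold after adding the pseudocount of 1. All 4 listed inner ring genes lie at least 2-fold lower in erythroblasts, and Lmna and Ranbp10 are the members joined by a thick line whose erythroblast value is the higher one.

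**Figure D2:**
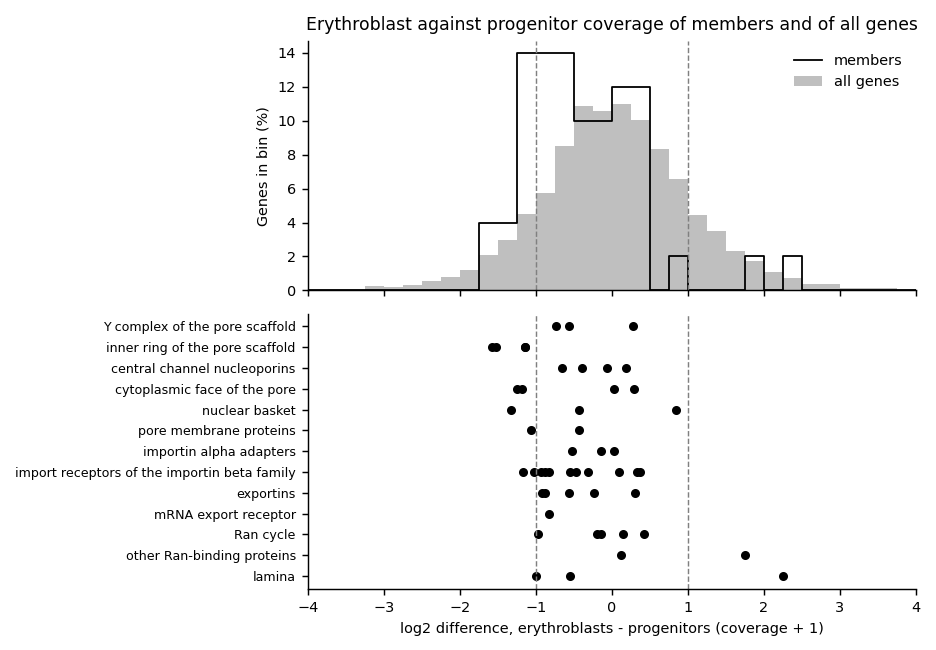
Upper panel: share of all 5194 genes (grey bars) and of the 50 members (line) by log2 difference, in bins of 0.25, with the few genes beyond the axis not shown. Lower panel: each point is 1 member, by role, with dashed lines at the 2-fold rule. The member line is shifted to the left of the bars, with 11 members at or beyond the left dashed line and 2 beyond the right one.

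The nucleoporins of the inner ring fell together. Of 5 inner ring genes 4 were listed and all 4 fell (against 13.2% of all genes), with a median log2 difference of -1.34. Nup93, which links the inner ring to the central channel, had 23.2 in progenitors against 7.42 in erythroblasts (log2 difference -1.53), with each of its 5 exons lower. Nup188, a large scaffold protein bound to Nup93, had 148 and 66.0 (-1.15), with 24 of 26 exons lower. In both genes the erythroblast sum was less than the progenitor sum by over 2-fold, and the calls held under every alternative tried. Nup205, the paralogue of Nup188, had 26.5 and 11.4 (-1.15), with all 9 exons lower. Nup155, which anchors the ring near the membrane, had 5.71 and 1.24 (-1.58), on its first coding exon alone. Its erythroblast value is near the listing minimum of 0.8. The calls of Nup205 and Nup155 were lost with a pseudocount of 5, where the differences were -0.94 and -0.78.

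No member of the outer scaffold or of the central channel met the rule. Of 6 Y complex genes with a member's symbol 3 were listed. Nup85 had 43.2 and 25.5 (-0.74), with 7 of 9 exons lower, and by its exon median of -1.003 it would pass the rule. Nup133 had 50.5 and 33.7 (-0.57) with 6 exons higher and 6 lower, and Nup107 had 16.8 and 20.5 (0.27). The first 2 were lower and the last was higher in erythroblasts, so the 3 listed members of this complex did not share a direction. In the central channel, Nup62, a repeat nucleoporin with 1 listed exon in a locus shared with Atf5 and Il4i1b, had 292 and 185 (-0.66). Nup98, a mobile repeat nucleoporin, had 25.3 and 19.0 (-0.40). The channel genes Nup54 (11.8 and 11.2) and Nupl1 (4.05 and 4.75) lay close to 0, at -0.07 and 0.19.

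On the 2 faces of the pore some members fell and others did not. On the cytoplasmic side Nup214 had 191 and 83.3 (-1.19), with 13 of 14 exons lower and an exon median of -0.83 that misses the rule, and Rae1, an mRNA export factor docked at the pore, had 59.6 and 24.4 (-1.25), with all 9 exons lower. Their neighbours in the pore, Nup88 (17.7 and 21.9) and Ranbp2 (16.3 and 16.6), the large SUMO ligase of the cytoplasmic filaments, did not meet the rule, at 0.29 and 0.02. Of the 3 listed exons of Ranbp2 2 were lower and 1 higher. Its exon median was -0.44, and without its best covered exon the difference was -0.54. In the nuclear basket Nup153 had 38.8 and 14.9 (-1.33), Tpr had 246 and 182 (-0.43), and Nup50 had 44.04 and 80.1 (0.85). Nup153 and Nup50, which bind each other in the basket, thus lay on opposite sides of 0. All 7 exons of Nup50 were higher in erythroblasts, by 1.27-fold to 3.44-fold, and their median log2 ratio of 1.10 lies past the rule. The fall of Nup153 was carried by its 3 most 3' listed exons, and the median over its 7 exons was -0.32. The membrane nucleoporin Nup210 had 93.6 and 44.1 (-1.07), with 22 of 24 exons lower, and Ndc1, which anchors the pore in the membrane, had 1.73 and 1.01 on 1 exon.

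Most transport receptors were lower in erythroblasts (against 48.8% of all genes), but few by 2-fold. Of 19 listed receptors (importin alpha adapters, import receptors and exportins) 2 fell (10.5%, near the 13.2% of all genes). None rose (against 15.3% of all genes), and the median was -0.53. Kpnb1, importin beta, the main carrier of classical import, had 311 and 138 (-1.17). Of its 16 exons 11 were lower and 5 higher, and the median exon log2 ratio was -0.68, so the call depends on summing the exons. Tnpo3, which imports splicing factors, had 17.8 and 8.22 (-1.03), just inside the rule, and without its best covered exon the difference was -0.52. Ipo5, an importer of ribosomal proteins and histones, had 191 and 107 (-0.83), with 14 of 17 exons lower. Tnpo2 (69.7 and 88.0) and Ipo9 (38.2 and 49.5), a carrier of histones, were higher in erythroblasts at 0.33 and 0.36, with 12 of 17 and 13 of 16 exons higher. The other import receptors, Ipo4, Ipo7, Ipo8, Ipo11, Ipo13 and Tnpo1, lay between -0.94 and 0.09 and had 1 to 4 listed exons each.

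None of the 3 listed importin alpha adapters, which join cargo to importin beta, met the rule. Kpna2 had 7.12 and 7.28 (0.03), Kpna6 had 5.26 and 4.66 (-0.15), and Kpna3 had 8.79 and 5.77 (-0.53), close to the median of the members. Their listed exons numbered 1 for Kpna2 and 3 for each of the others. None of the 5 listed exportins met the rule. Xpot, the tRNA exportin, had 83.8 and 43.8 (-0.92), Xpo6, the actin exportin, had 60.6 and 40.6 (-0.57), and Xpo5, the exportin of microRNA precursors, had 10.7 and 5.37 (-0.88). Cse1l, which returns importin alpha to the cytoplasm, had 11.3 and 9.47 (-0.24). The mRNA export receptor gene Nxf1 had 45.5 and 25.1 (-0.84), with 6 of 9 exons lower. Xpo1 and Xpo4 were not listed and are not analysed here.

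Xpo7 did not meet the rule in either direction. It had 11.7 in progenitors against 14.5 in erythroblasts (log2 difference 0.30). The value rests on 7 listed exons of at least 27 coding exons, of which 3 were higher and 4 lower. The 2 most 5' exons were 2.52-fold and 2.56-fold higher in erythroblasts, a middle exon was 2.41-fold higher, and the others were 0.55-fold to 0.67-fold. The median of its exon log2 ratios was -0.58, so its direction depends on how the exons are combined. No listed exon of Xpo7 exceeded 5.25 in either stage.

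None of the 5 listed genes of the Ran cycle met the rule, and their log2 differences ran from -0.98 for Rcc1 to 0.42 for Rangap1. Ran had 114 and 127 (0.15). Its 2 middle exons were 1.03-fold and 1.02-fold, its most 5' listed exon was 0.58-fold and its most 3' one 1.53-fold. Ranbp1, which helps release Ran from transport receptors, had 97.7 and 88.3 (-0.14). Of its exons 3 were higher and 2 lower, with an exon median of 0.11, so its direction depends on how the exons are combined. Ranbp3, a cofactor of Xpo1, had 48.4 and 42.1 (-0.20). Of the 13 listed exons of Ranbp3 9 were lower and 4 higher, with an exon median of -0.76, so its size of difference depends on how the exons are combined. Rcc1, the nuclear exchange factor, had 16.4 and 7.82 (-0.98), just outside the rule, with all 5 exons lower. The rule would be passed by Rcc1 with a pseudocount of 0.1, with median-ratio scaling, with quantile normalization, by its exon median and without its best covered exon. Rangap1, the GTPase activator, had 137 and 184 (0.42). This excess lay in 4 neighbouring exons, the fifth to the eighth from the 5' end, which together went from 11.7 to 58.5, a 4.98-fold rise, while the other 9 exons summed to 126 and 125. This run of exons was chosen after its values were seen and has no test.

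Ranbp10 and Ranbp9 are related Ran-binding proteins. Ranbp10 had 45.9 in progenitors against 157 in erythroblasts (log2 difference 1.75), at percentile 95.0 of all genes. All 11 listed exons were higher, from 1.32-fold at the most 3' exon to 5.31-fold at the exon before the last 2, counted from the 5' end. Ranbp9 had 2.12 and 2.38 on 1 exon (0.12).

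The lamina genes diverged. Lmna had 62.9 in progenitors against 304 in erythroblasts (log2 difference 2.25), at percentile 97.8 of all genes. Its 11 listed exons were all higher in erythroblasts, from 2.48-fold at the most 5' exon to 12.2-fold. Lamins A and C come from the same gene and differ at the 3' end, where lamin A has exons of its own and lamin C reads into a short stretch of the next intron. The exon found only in the lamin A transcript, with its lower coordinate at 88286268 on chromosome 3 (mm9), went from 0.90 to 6.12, a 6.81-fold rise. The 21 bases that distinguish the longer form of the neighbouring exon from the lamin A form went from 0.21 to 1.09, or 5.28-fold, as the difference of the 2 deposited rows. Both 3' ends were therefore higher in erythroblasts, and their difference from each other was not tested.

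Lmnb1, a B-type lamin that stays attached to the membrane, had 93.4 and 46.03 (-1.01), with all 10 listed exons lower. It was the member just inside the rule, and the call was lost with a pseudocount of 5 (-0.95), without globin genes (-0.97), without its best covered exon (-0.95) and by the exon median (-0.76). Its first coding exon went from 20.5 to 2.82. Lbr, the lamin B receptor of the inner membrane, had 147 and 99.3 (-0.56), and its 2 ends went opposite ways. Its 4 most 5' exons summed to 27.3 and 41.9, each 1.08-fold to 1.72-fold higher in erythroblasts, and its 4 most 3' exons summed to 85.3 and 29.0, each 0.21-fold to 0.51-fold. These ends were chosen after their values were seen.

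**Figure D3:**
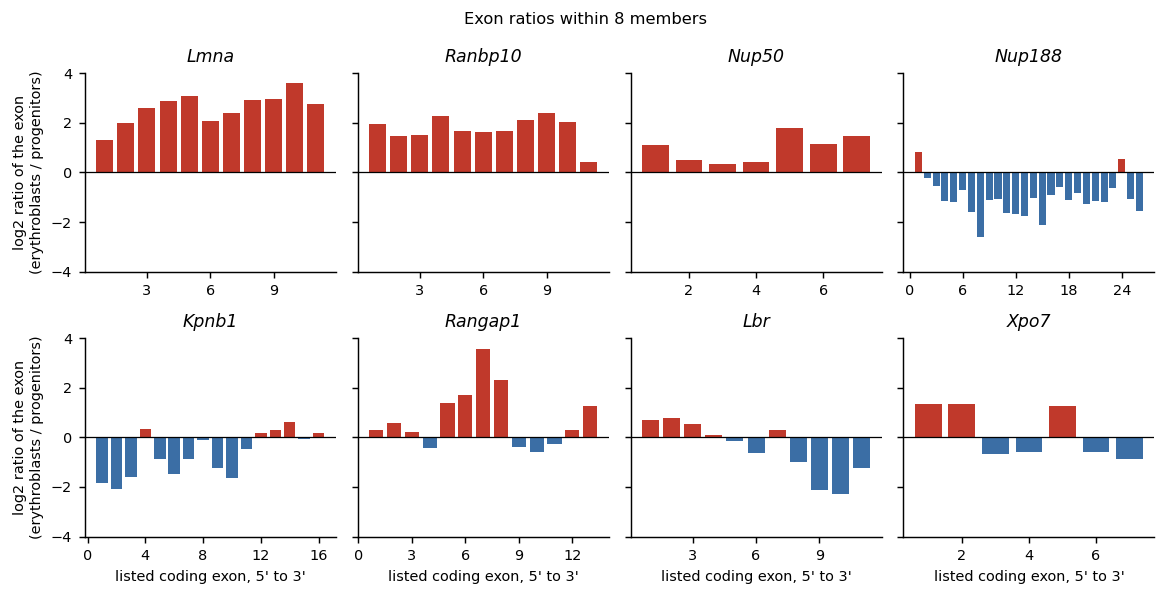
Log2 ratio of erythroblast to progenitor coverage for each listed coding exon of 8 members, in order from the 5' to the 3' end of the gene, red above 0 and blue below. Bars of Lmna, Ranbp10 and Nup50 are all above 0, and 24 of the 26 bars of Nup188 are below it. Those of Kpnb1, Rangap1, Lbr and Xpo7 change sign along the gene.

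Other genes of nuclear transport outside the rule for members were read from a list chosen with earlier results of these data known. Of 32 genes 23 were listed, 3 fell (13.0%, against 13.2% of all genes), 2 rose (8.70%, against 15.3%) and 18 did neither, with a median of -0.16. Pom121, a membrane nucleoporin, fell from 379 to 138, with 12 of 13 exons lower. Sec13, a Y complex subunit that also coats transport vesicles, rose from 23.5 to 60.2 with all 7 exons higher. The Y complex subunit Seh1l (5.35 and 10.5) did not meet the rule. Snupn (4.98 to 1.34), the adapter for import of small nuclear ribonucleoproteins, and Thoc6 (8.08 to 3.46) fell and Thoc2 (1.15 to 6.42) rose, on 1 or 2 listed exons each. Thoc2 and Thoc6 belong to the same mRNA export complex, and Thoc3 (22.2 and 11.1) and Thoc5 (31.3 and 21.2) of that complex did not meet the rule.

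The second comparison asked where EKLF peaks lay at these genes. A member had a peak where one lay within 5 kb of the span of its listed exons. By this rule 27 of 50 members had an erythroblast peak (54.0%, against 46.5% of all genes), 17 had a progenitor peak (34.0%, against 30.9%), and these 17 all had peaks in both lists (against 27.1% of genes). A further 10 had an erythroblast peak alone (20.0%, against 19.4%), none had a progenitor peak alone (against 3.79%) and 23 had neither (against 49.7%). These shares were near those of all genes. Unlisted exons are missing from the spans, so peaks at 5' ends farther than 5 kb away were not counted.

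The 5 highest-ranked erythroblast peaks at members lay at Kpnb1, Nup133, Ran, Rae1 and Tnpo2. Enrichment and rank come from the authors' lists, serve only within a list, and all positions are in mm9. The Kpnb1 peak (chromosome 11, 97048001 to 97050711) reached an enrichment of 27.3, ranked 211 of 19353 and covered the most 5' listed exon. At Nup133 the peak (chromosome 8, 126472047 to 126474412) had 20.8 and ranked 539. At Ran a peak on chromosome 5 from 129524915 to 129527643 had 15.5, ranked 625 and covered 3 of the 4 listed exon starts. The peak at Rae1, on chromosome 2 from 172825032 to 172826945, had the highest enrichment of any member, 31.4 (rank 803), and no progenitor peak overlapped it. At Tnpo2 a peak on chromosome 8 from 87559130 to 87562927 had 21.5 and ranked 841. Of these 5 genes Kpnb1 and Rae1 fell and the other 3 did not meet the rule.

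In progenitors the 5 highest-ranked peaks lay at Kpnb1, Lbr, Ranbp1, Ran and Ranbp10. The peak at Kpnb1 (chromosome 11, 97047426 to 97050548) reached 16.5 and ranked 58 of 7358. At Lbr a peak on chromosome 1 from 183771667 to 183773558, 3.16 kb 5' of the listed exons, had 14.6 and ranked 355. The peaks at Ranbp1 (chromosome 16, 18247600 to 18250402, rank 413) and Ran (chromosome 5, 129524747 to 129527469, rank 525) had 10.4 and 9.34. Kpnb1 and Ran were thus among the 5 highest-ranked in both lists.

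Peaks at members lay mainly over or 5' of the most 5' listed exon, which need not be the first exon of the gene. These places were not counted for peaks at all genes, so they are not shown to be particular to members. Of the 35 erythroblast peaks 14 covered the listed position (lower coordinate) of the most 5' exon, 13 lay 5' of it, 4 inside the listed exons and 4 beyond their 3' end. Of the 18 progenitor peaks these counts were 9, 6, 0 and 3. All 18 progenitor peaks overlapped an erythroblast peak, as did 85.4% of progenitor peaks within 5 kb of any gene. Of the 35 erythroblast peaks 17 (48.6%) overlapped a progenitor peak, against 50.8% of those near any gene. At Xpo5 the progenitor peak lay beyond the 3' end and the erythroblast peak 5' of the listed exons, so 16 of the 17 members with peaks in both lists had an overlapping pair within the window.

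**Figure D4:**
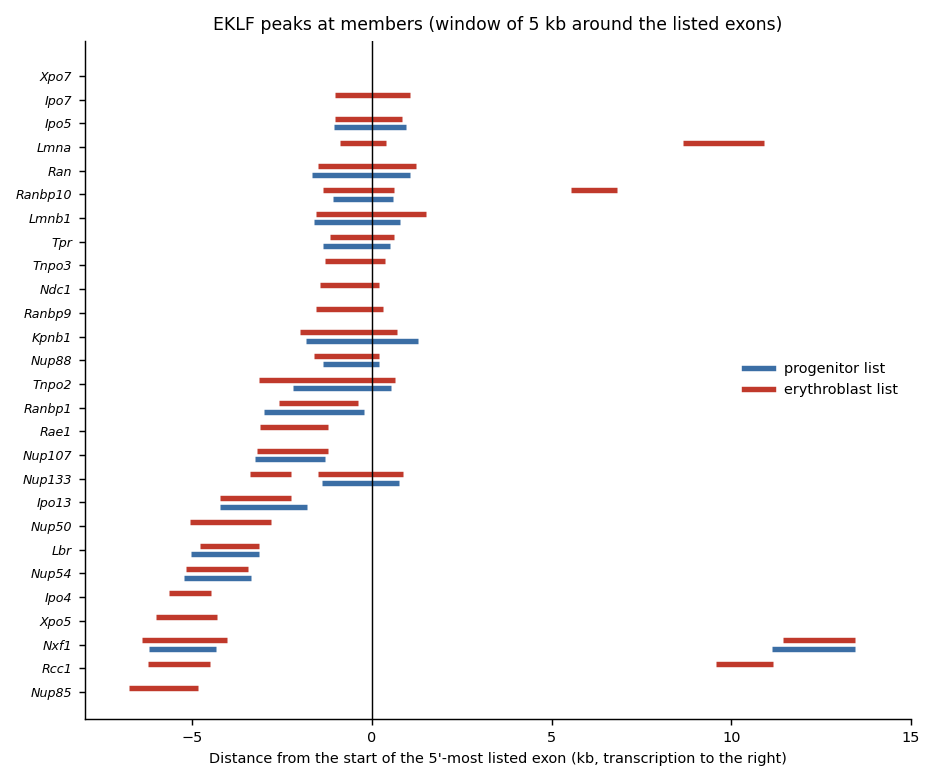
Extent of each EKLF peak at a member, by distance in kb from the position of its most 5' listed exon with transcription to the right, for the progenitor (blue) and erythroblast (red) lists. That position is the lower coordinate of the exon, which is its 3' end in reverse-strand genes. Most bars lie over or to the left of the line at 0, and every blue bar at a 5' end has a red one beside it. The 6 peaks centred more than 15 kb to the right are not shown, among them the only peak of Xpo7.

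Both members that rose had erythroblast peaks, as did 47.1% of all genes that rose and 46.5% of all genes, and a count of 2 members shows no link between peaks and rises. Ranbp10 had a peak in both lists over its most 5' listed exon, on chromosome 8 from 108350261 to 108351944 in progenitors (enrichment 13.2) and from 108350229 to 108352216 in erythroblasts (18.2). Its other 2 erythroblast peaks lay within its listed span, with 11.4 and 6.61. Lmna had 2 erythroblast peaks and no progenitor peak. Over its most 5' listed exon the peak (chromosome 3, 88306289 to 88307564) reached 5.51 and ranked 17007 of 19353. The other, inside the gene from 88295755 to 88298030, had 9.46, close to the list's median of 9.31. Both peaks of Lmna were therefore in the lower-ranked part of the list.

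Of the 11 members that fell, 4 had an erythroblast peak (36.4%, against 43.1% of all genes that fell) and 7 had no peak in either list (63.6%, against 53.0%). Besides Kpnb1 and Rae1, Lmnb1 had peaks in both lists over its first coding exon, with 11.3 in progenitors and 15.9 in erythroblasts, and Tnpo3 had a weak erythroblast peak (7.99, rank 18589). Rae1 had a further peak beyond the 3' end of its listed exons in both lists (9.33 in progenitors, 9.08 in erythroblasts). None of the 4 inner ring genes had a peak within 5 kb. At Nup155, whose first coding exon is listed, the nearest peaks on the 5' side lay 9.76 kb away in progenitors and 9.55 kb in erythroblasts. At Nup93, Nup188 and Nup205 the first coding exons are not listed, and the nearest erythroblast peaks on that side lay 12.2, 20.4 and 13.3 kb from the listed exons. Within 5 kb, peaks were thus found at members that rose, fell and did neither, in both lists.

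Xpo7 had 1 peak, in the erythroblast list, on chromosome 14 from 71064831 to 71066246. It lay beyond the 3' end of the listed exons, with an enrichment of 9.08 and rank 17314. Unlisted coding exons of Xpo7 lie farther 3', so the peak may lie inside the gene. On the 5' side the nearest erythroblast peak lay 20.1 kb and the nearest progenitor peak 58.4 kb from its most 5' listed exon, which is not known to be its first. Nup50 had a peak in erythroblasts alone, on chromosome 15 from 84752747 to 84754994, 2.81 kb 5' of the listed exons, with an enrichment of 19.7 (rank 2284).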

How the data were processed

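The labels' protocols describe ChIP-seq of tagged EKLF, input libraries and RNA-seq of sorted fetal liver cells in 7 samples. Per the submitters' processing notes the build was mm9. Alignment, peak calling and counting methods are not named in any source used here. The expression table is named as RPKM, but the authors' deposited values look like summed coverage signal of coding exons: all values below 100 (100%) lay within 0.01 of a whole multiple of 1 step per column, the step being 1 in 1835 for progenitors and 1 in 2151 for erythroblasts. In the deposited peak lists, which have no header, column 7 was read as the authors' fold enrichment (a ratio, lowest 2.14), and the authors' -log10 p was taken from column 8 (lowest 5). Input libraries had no values used here.

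Transcripts were matched to symbols through RefSeq (GRCm38.p6), 6772 of 6853. For each gene the transcript with the most listed exons was summed. Exon positions are the lower coordinate, which is the 3' end of exons of reverse-strand genes. Whether counting used strand is not stated in the labels, so reads of overlapping genes cannot be told apart. Protein-coding overlaps in the annotation were Tsnaxip1 with Ranbp10, Fam78a with Nup214, Irf5 with Tnpo3, Dok2 with Xpo7, Atf5 and Il4i1b with Nup62, Odr4 and Prg4 with Tpr, Art1 and Pgap2 with Nup98, Rabep1 with Nup88, Nol7 with Ranbp9, Lrrc70 with Ipo11 and Gm52051 with Tnpo1.

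A fixed 2-fold rule replaced a test, with a pseudocount of 1. Named genes were the members past the rule, Xpo7, the 2 best covered members of each role group and all members of groups with 4 or fewer listed members; other members are named where a complex or family is described. Peaks named were the 5 highest-ranked of each list, those at members past the rule and those at Xpo7, besides Nup50, which was chosen after its values were seen, as were the 5 promoters. Members and lists were chosen with earlier results of these data known. Alternatives were other pseudocounts, filters, scalings, exon summaries, windows and peak thresholds. The steps were tested on simulated data. Python 3.11.15, pandas 2.3.3, numpy 2.4.6 and matplotlib 3.10.9 were used.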

Additional observations from a re-analysis of the deposited data

How the results depend on the processing

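Both rises (Lmna and Ranbp10) were kept under all 10 alternatives on expression, and Nup50 was added by the exon median and by leaving out the best covered exon. Of the 11 falls Nup93, Nup188, Nup210 and Rae1 were kept under all 10. The number of falls was 7 with a pseudocount of 5 and 8 to 14 otherwise, and no call reversed. Of all genes 7.91% fell with a pseudocount of 5 and 9.58 to 15.6% otherwise, so the background moved as well. Members with a value numbered 43 without the best covered exon, 45 with a minimum of 5 in the higher stage and 41 with 3 or more listed exons. Under the median of exon log2 ratios 10 of 50 members fell, where 14.6% of all genes did. Of these 10, 6 were among the 11, while Kpnb1 (-0.68), Nup153 (-0.32), Nup214 (-0.83), Tnpo3 (-0.70) and Lmnb1 (-0.76) were lost. The cause was not tested. Globin removal lost Lmnb1 alone. A limit to members with 3 or more listed exons was added after seeing the data and gave 10 falls and 2 rises among 41 members. Of all 2746 genes within that limit 12.35% fell and 14.82% rose. With a window of 1 kb, 16 members had an erythroblast peak (32%, against 30.8% of all genes). A progenitor peak was found at 10 (20%, against 19.6%) and both at 10 (20%, against 17%). With 50 kb these were 48, 39 and 39, where 88.1, 70.1 and 67.6% of all genes had them. The strictest peak settings gave counts within 1.5 times of those reported. No paired analysis was possible because each stage has 1 column and 1 pooled peak list, and for the same reason no replicate could be left out.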

Other observations

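Genes of the nuclear envelope outside the rule for members were read in the same way. Of 18 genes 13 were listed, 3 rose (23.1%, against 15.3% of all genes), 1 fell (7.69%, against 13.2%) and 9 did neither, with a median log2 difference of -0.09. Sun1, which spans the inner nuclear membrane and links the lamina to the cytoskeleton, rose from 18.6 to 78.8, with all 9 exons higher and a peak in both lists. Its relative Sun2 rose from 2.95 to 10.5 on 2 exons, and Tor1aip2, an activator of torsin ATPases, from 1.31 to 3.80 on 1 exon. Nrm, which encodes the inner membrane protein nurim, fell from 22.6 to 1.85 on 1 exon, with 2 erythroblast peaks and no progenitor peak. Emd, which encodes the lamin-binding protein emerin, had 48.4 and 26.5, Tmpo, which encodes lamina-associated polypeptides, had 53.3 and 49.9, and neither met the rule. These values rest on 1 column per stage.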
